A study of Homo sapiens with 3 samples.

Results

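Transfer RNA (tRNA) genes are short genes whose product carries an amino acid to the ribosome. All nuclear genes of biotype tRNA on chromosomes 1 to 22 and X of the RefSeq table (GRCh38.p14) were taken, 443 of the 59098 genes that the table lists there. For 14 of them the coordinates belong to an extra sequence outside the chromosome itself, since the table's positions start again from low values in their rows, and these genes could not be placed against the data. The remaining 429 genes have a median length of 73 bases and are described below, in H1299 cells, an established line of human lung cancer. The labels name no treatment and no genetic change. They were profiled by CUT&RUN, in which an antibody brings a nuclease to its target in permeable cells and the DNA fragments it releases are sequenced. The series has 3 libraries, with antibodies against the transcription factor SP1, against histone H3 acetylated at lysine 27 (H3K27ac), and a control IgG, which was not analysed here. The data are the deposited peak summits, 5570 for SP1 and 3201 for H3K27ac, each a single base with a score on a −log10 scale. Each antibody has 1 library. No value has a replicate, no test between groups was possible, and library depth is unknown. Intervals are exact 95% binomial intervals. They cover counting error only and treat genes as independent, which neighbouring genes are not.

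RNA polymerase III (Pol III) transcribes tRNA genes. Their promoter lies inside the gene, in the A box and the B box, which the factor TFIIIC binds and from which it places TFIIIB just upstream. Pol III stops in a run of T after the gene. SP1 is known as a zinc-finger factor of Pol II promoters that binds GC-rich elements, the GC boxes. H3K27ac marks active promoters and enhancers of Pol II.

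No tRNA gene sequence table was given, but the RefSeq promoter table of the same build holds 300-base windows around start sites of other genes. A B box was searched for in them only as the exact sequence given below, and 8 tRNA genes had it there. Of these, 2 had an SP1 summit, and both encode glycine tRNAs with the anticodon CCC. They are shown because they fix the strand, and so the side of the gene on which the summit lay. TRG-CCC2-2 runs on the minus strand of chromosome 16 from 636806 to 636736, inside the promoter window of the lncRNA gene LOC100287175. TRG-CCC2-1 runs on the minus strand of chromosome 2 from 70249061 to 70248991 and lies upstream of the start of TIA1, which encodes an RNA-binding protein. The first line covers chr16:636702-636806 and the whole gene of 71 bases. The second covers chr2:70248823-70249043, which holds the last 53 of the 71 bases of the gene. Both are minus strands, 5′ to 3′. Capitals mark, in this order, the B box (searched on both strands as GGTTCGA, then any base N, then TCC), a GC box (searched as GGGCGG on both strands) and the first run of at least 4 T after the gene. The single capital further on in the second line is the SP1 summit.
TRG-CCC2-2: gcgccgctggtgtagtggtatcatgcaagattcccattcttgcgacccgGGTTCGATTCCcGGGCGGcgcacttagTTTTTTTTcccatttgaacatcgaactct
TRG-CCC2-1: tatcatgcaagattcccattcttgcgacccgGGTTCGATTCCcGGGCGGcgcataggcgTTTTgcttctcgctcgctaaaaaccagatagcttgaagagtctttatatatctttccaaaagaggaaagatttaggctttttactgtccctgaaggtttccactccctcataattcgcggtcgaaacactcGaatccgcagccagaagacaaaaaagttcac

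In both genes the summit lay downstream, past the T run. It was 127 bases beyond the end of TRG-CCC2-2, at 636609 and outside the sequence shown, and 138 bases beyond the end of TRG-CCC2-1, at 70248853. The T run began at base 6 after the first gene, with 8 T, and at base 7 after the second, with 4 T. Each gene holds 1 GC box within its own last bases, and the printed flanks, of 34 and 168 bases, hold none. A second promoter window of TIA1, at chr2:70248579-70248878, holds the TRG-CCC2-1 summit but not the tRNA gene, and it has 2 GC boxes in its 300 bases. Of all 35116 promoter windows, 45.0% hold a GC box on either strand, so a match is common, and 0.0826% hold the B box. The TRG-CCC2-1 summit was also 60 bases from an end of TIA1, and the TRG-CCC2-2 summit 304 bases from an end of METTL26.

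A further pair of summits lay inside promoter windows, 202 and 213 bases from a start site. The tRNA genes beside them were over 5000 bases from any protein-coding gene end, counting only the outer ends of a gene. These summits are shown with up to 60 bases on each side and the summit in capitals, to set their sequence beside the GC box. The first is the minus strand of chr12:96035729-96035837, in a window of LTA4H, an enzyme of leukotriene synthesis, 232 bases from TRD-GTC2-8. The second is the plus strand of chr6:26521456-26521553, in a window of the lncRNA gene HCG11, 203 bases from TRL-CAG1-7.
TRD-GTC2-8 summit: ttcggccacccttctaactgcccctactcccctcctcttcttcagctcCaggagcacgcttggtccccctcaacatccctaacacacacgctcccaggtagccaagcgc
TRL-CAG1-7 summit: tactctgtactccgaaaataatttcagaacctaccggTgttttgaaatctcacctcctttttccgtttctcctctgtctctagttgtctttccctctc
Neither window holds the 6 letters of a GC box on either strand in its 300 bases. No sequence was used for the other summits.

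SP1 summits lay beside tRNA genes far more often than beside the same genes moved along the chromosome. Of the 429 genes, 35 had an SP1 summit within 500 bases of an end, or 8.16% (5.75 to 11.2). Among all 58419 placed genes the background was 5.09%, and among the 19821 protein-coding genes it was 11.5%. When every tRNA gene was shifted by 5, 10, 20, 50, 100 or 200 kb to either side, leaving out positions within 1000 bases of a tRNA gene, the share averaged 0.463% over the 12 shifts. The highest shift, 5 kb towards higher coordinates, gave 1.40% (5 of 358 positions), and the lowest gave none. The share at the genes was thus 17.6 times the mean of the shifted positions. Fixed shifts are a description and not a test.

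**Figure D1:**
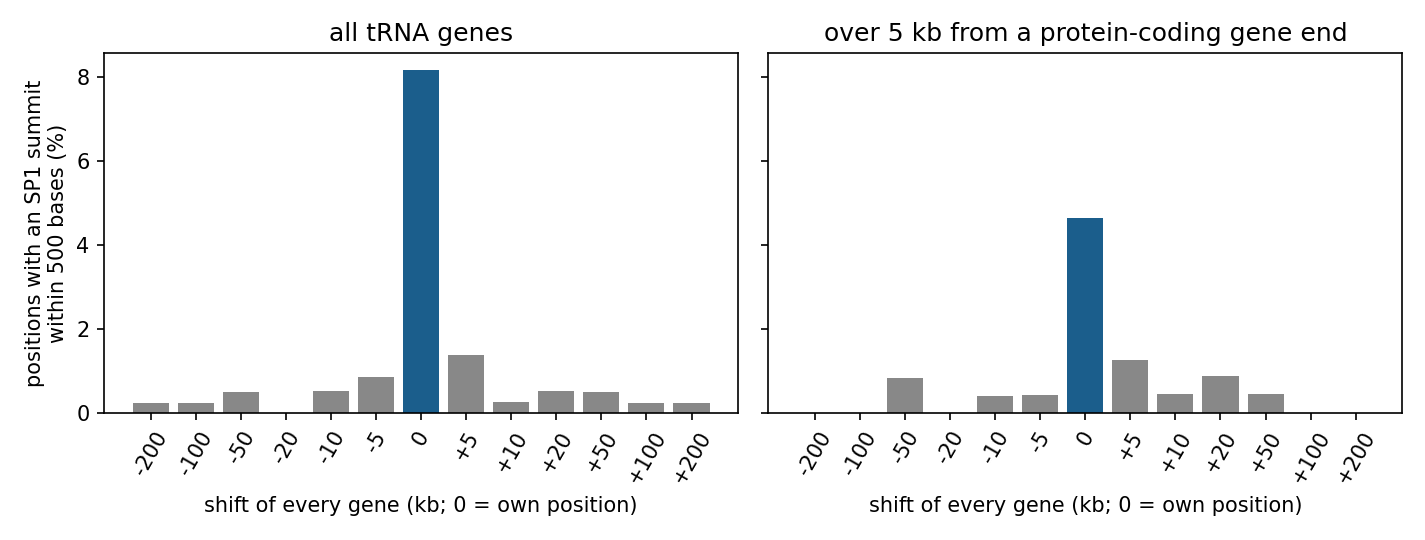
Share of positions with an SP1 summit within 500 bases (%, vertical) at the tRNA genes themselves (blue, shift 0) and with every gene moved by the distance on the horizontal axis (kb, grey). On the left, all 429 genes stand at 8.16% against at most 1.40% after a shift; on the right, genes over 5 kb from a protein-coding gene end stand at 4.64% against at most 1.27%.

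Other kinds of gene gave lower or higher shares by the same rule. Protein-coding genes, at 11.5% (11.0 to 11.9), were above the tRNA genes, but the 2 ends of a long gene offer a longer stretch to search than a tRNA gene does. For lncRNA genes the share was 3.12% (2.87 to 3.39). Genes as short as tRNA genes were mostly low: miRNA genes had 17 of 1911 (0.890%), and snoRNA genes, whose RNAs guide chemical modification of other RNAs, 4 of 1190 (0.336%). The snRNA genes, which include U6 copies made by Pol III, had 8 of 149 (5.37%, 2.35 to 10.3), an interval that overlaps that of tRNA genes. All small RNA genes other than tRNA genes together had 31 of 3374 (0.919%, 0.625 to 1.30). Pseudogenes stood at 0.424%. The intervals of tRNA genes and of all these small RNA genes combined do not overlap. How dense the genes around each kind are differs too, and its part in these shares was not tested.

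**Figure D2:**
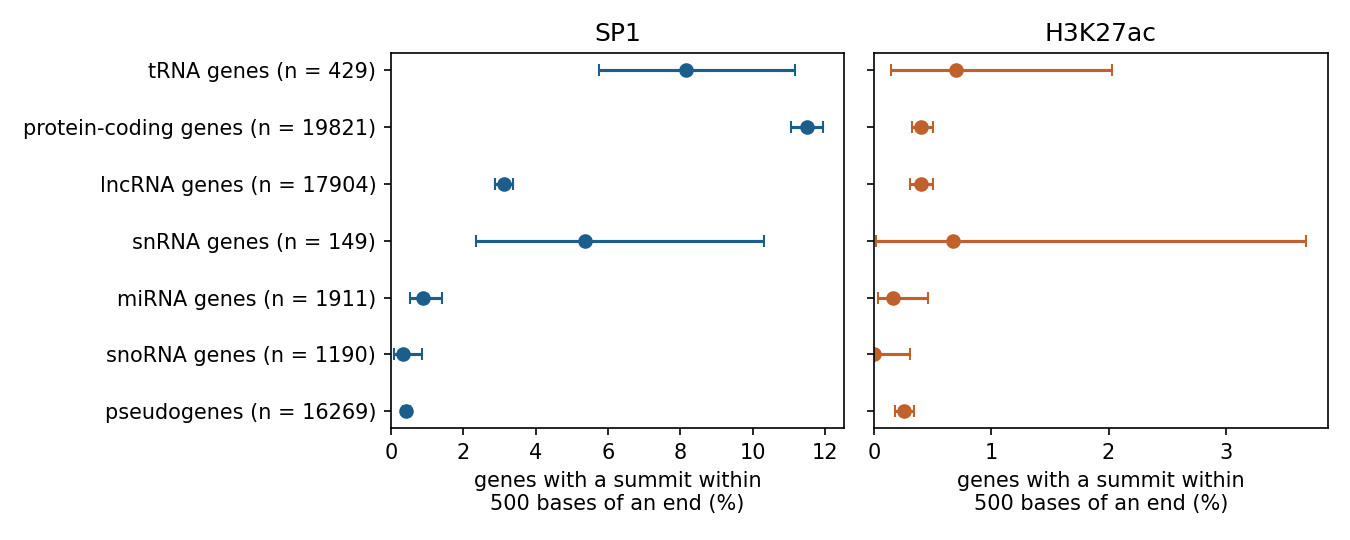
Share of genes with a summit within 500 bases of an end (%, horizontal) for SP1 (left) and H3K27ac (right), with exact 95% binomial intervals as bars and the number of genes beside each name. For SP1, tRNA genes (8.16%) stand below protein-coding genes (11.5%) and above miRNA (0.890%) and snoRNA genes (0.336%); for H3K27ac the intervals of most kinds overlap.

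The 35 genes shared 30 distinct SP1 summits, 0.539% of the list. Of these, 24 lay within 500 bases of 1 tRNA gene and 6 within 500 bases of 2. In all 6 cases the summit was between the 2 genes. Of 77 neighbouring pairs of tRNA genes no more than 1000 bases apart, 9 had an SP1 summit between them (11.7%, 5.49 to 21.0). No share for shifted pairs or for pairs of other genes stands beside it, so it shows no preference for the gap. The 6 pairs were TRL-CAA4-1 and TRE-CTC2-1 on chromosome 1, TRV-CAC1-4 and TRL-AAG1-3 on chromosome 5, TRR-ACG1-2 and TRV-CAC1-6 on chromosome 6, TRS-CGA1-1 and TRT-AGT5-1, and TRD-GTC2-11 and TRP-CGG1-3, on chromosome 17, and TRG-TCC1-1 and TRV-CAC3-1 on chromosome 19.

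The summits did not lie on the genes but beside them. None of the 30 was inside a tRNA gene. The shifted positions, equally short, held none inside either, so this absence does not set the genes apart. The distance classes used here were chosen after values were seen. The distance to the nearest gene was 55 to 468 bases, with a median of 212 and quartiles of 146 and 247 bases. At 100 to 300 bases lay 24 of the 30, at under 100 bases 2 and beyond 300 bases 4. Over the shifts, the number of summits over 100 and up to 300 bases away averaged 0.833 with a highest of 3. Beyond 500 and up to 1000 bases 10 further summits followed, against a mean of 1.50 and a highest of 5 over the shifts. The nearest 3 genes just outside the limit were TRS-AGA2-2 at 502 bases, TRQ-CTG1-4 at 545 and TRW-CCA4-1 at 557. By coordinate, 16 summits lay on the low side of the nearest gene and 14 on the high side. The gene table gives no strand, so upstream and downstream cannot be told apart except for the 2 glycine genes above. A distance of this size was also usual at protein-coding genes: with 1 start site per gene, 58.1% of 1896 sites with a summit within 500 bases had it at 100 to 300 bases, with a median of 220. For small RNA genes other than tRNA genes it was 13 of 31 (41.9%), with a median of 224, and 3 of the 31 had it inside the gene. Counted by gene, it was 28 of 35 tRNA genes (80%).

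**Figure D3:**
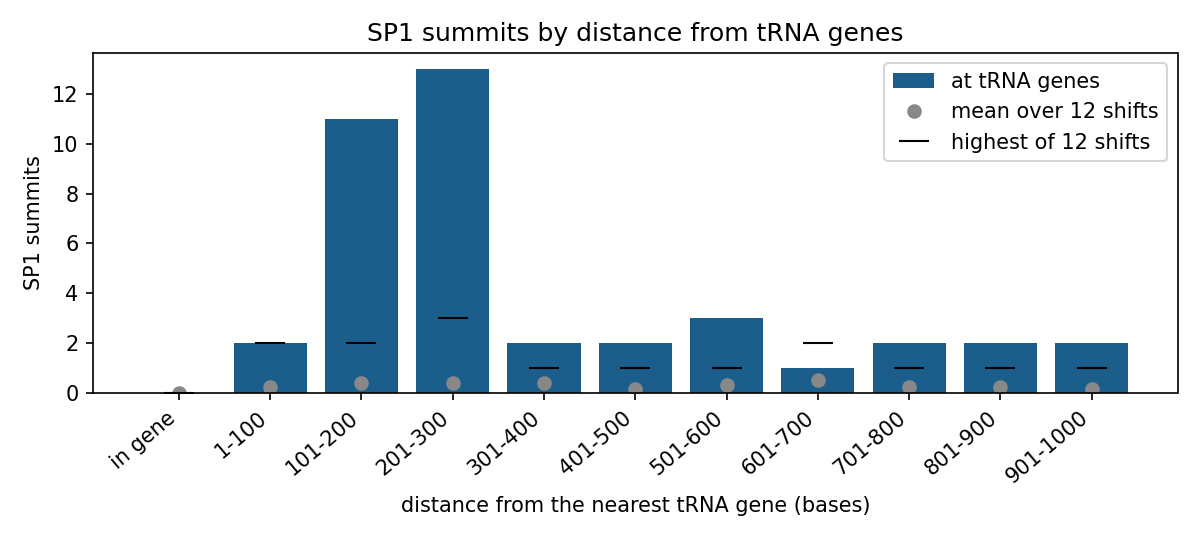
Number of SP1 summits (vertical) by distance from the nearest tRNA gene (bases, horizontal), as bars, with the mean (grey points) and highest (black dashes) over 12 shifts of the genes. The bins up to 200 and up to 300 bases hold 11 and 13 summits and no bin of the shifted positions exceeds 3; no summit lies inside a gene.

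Scores of these summits were moderate. They ran from 3.98 to 15.9 with a median of 7.46 (quartiles 5.91 and 9.31). All SP1 summits had a median of 6.17 (4.77 and 9.04), and the 2033 within 500 bases of a protein-coding gene end had 8.43 (6.28 and 12.1). Above the list's median lay 22 of the 30, and above its upper quartile 8. When hits were limited to summits above that quartile, the share was 1.86% of tRNA genes, against 5.34% of protein-coding genes, and 0.619% of tRNA genes over 5000 bases from a protein-coding gene end.

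The highest scores belonged to the selenocysteine tRNA gene TRU-TCA1-1 on chromosome 19, at 45478601 to 45478687. Its tRNA reads UGA as selenocysteine, and in vertebrates the gene is unusual in having promoter elements upstream of it, like a U6 gene. A summit of 15.9 lay 178 bases from its low-coordinate end and a second of 15 lay 310 bases from its high-coordinate end, ranks 416 and 486 of 5570. It was the only tRNA gene with a summit on both sides within 500 bases. The nearest protein-coding gene end, of FOSB, was 3244 bases from the first summit. The second selenocysteine gene of the table, TRU-TCA2-1 on chromosome 22, had no SP1 summit within 500 bases.

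Of the 20 summits with the highest scores, 6 were at a single tRNA gene and within 1000 bases of a protein-coding gene end. TRG-CCC2-2 had 13.2, and TRE-TTC1-1, a glutamate tRNA gene on chromosome 2, had 12.4 at 178 bases from the gene and 556 bases from an end of VMA22. TRE-CTC1-7, also for glutamate, on chromosome 6, had 9.47 at 172 bases, 625 bases from NCOA7. The isoleucine gene TRI-TAT1-1 on chromosome 19 had the closest summit of all, 55 bases away, with a score of 8.81, and 556 bases from PLEKHG2. TRG-CCC2-1 had 8.06. TRS-GCT4-2, for serine, had 8.0 at 468 bases, the farthest of all, and that summit was 125 bases from KNL1, a kinetochore gene. Of the 30 summits, 3 lay within 500 bases of a protein-coding gene end and 10 within 1000.

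Some summits far from protein-coding genes had scores in the same range. TRQ-TTG1-1, a glutamine tRNA gene on chromosome 17, had 10.8 at 264 bases, with the nearest protein-coding gene end, of GNGT2, 13371 bases from the summit. TRD-GTC1-1, for aspartate on chromosome 12, had 10.2 at 121 bases and 11878 bases from TMPO, but this tRNA gene was 281 bases from an end of a lncRNA gene. TRV-CAC1-1, for valine on chromosome 1, had 8.43 at 132 bases and 31692 bases from CFAP126. These scores were the highest among the 14 summits over 5000 bases from a protein-coding gene end. The median of the 14 was 6.78, against 8.03 for the 10 summits within 1000 bases of one. TRL-CAG2-1, for leucine on chromosome 16, had 8.16 at 212 bases and 15067 bases from PLLP. TRP-TGG2-1, for proline on chromosome 11, had 7.80 at 249 bases and 25384 bases from WNT11. On chromosome 6, TRT-CGT5-1, for threonine, had 7.30 at 228 bases and 145023 bases from ZNF184, the most distant of all 30. TRQ-CTG1-2 had 6.76, also with ZNF184 nearest at 46185 bases, and TRL-CAG1-7 had 6.81. The remaining named summits, shared by pairs of genes, scored 9.52 between TRL-CAA4-1 and TRE-CTC2-1, 7.62 beside TRT-AGT5-1, 6.73 beside TRD-GTC2-11 and 6.65 beside TRV-CAC3-1. The 10 lower ones ranged from 3.98 (TRS-GCT6-1) to 6.31 (TRD-GTC2-8).

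**Figure D4:**
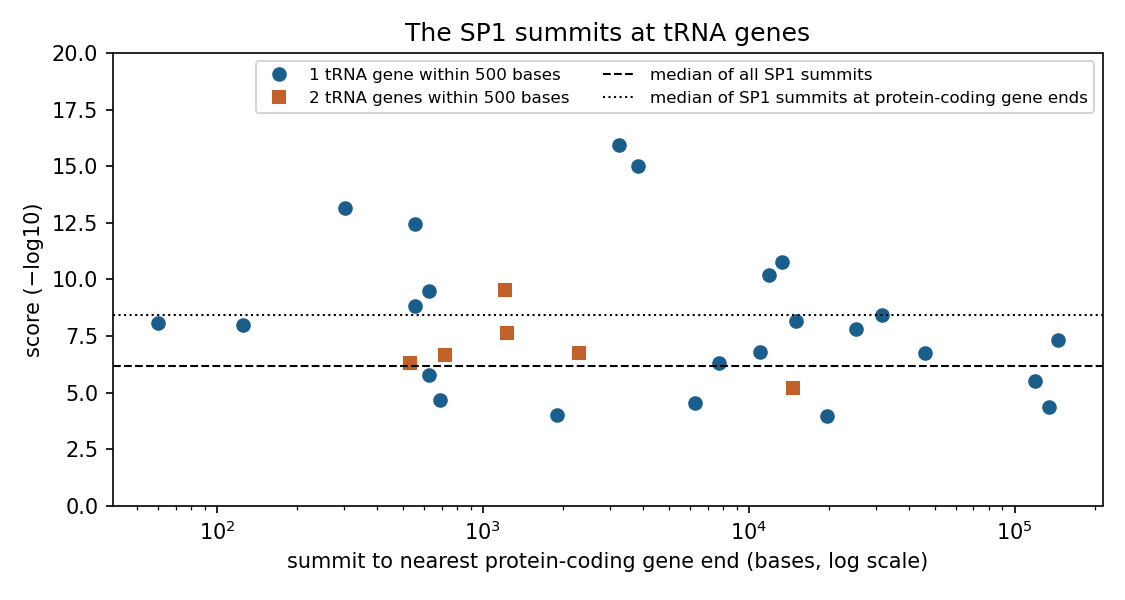
Score (−log10, vertical) of each of the 30 SP1 summits at tRNA genes by its distance to the nearest protein-coding gene end (bases, log scale), as blue circles for summits at 1 tRNA gene and orange squares for those at 2. The dashed and dotted lines are the medians of all SP1 summits (6.17) and of those at protein-coding gene ends (8.43); the 2 highest points are those of TRU-TCA1-1.

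The share of tRNA genes with an SP1 summit was higher near protein-coding genes and stayed above the shifted positions away from them. Within 1000 bases of a protein-coding gene end 12 of 55 tRNA genes had a summit (21.8%, 11.8 to 35.0), against 2.22% of shifted positions in the same distance class. Beyond that and up to 5000 bases it was 8 of 51 (15.7%, 7.02 to 28.6) against 0.209%. From there to 20000 bases it was 9 of 115 (7.83%, 3.64 to 14.3) against 0.427%, and beyond 20000 bases 6 of 208 (2.88%, 1.07 to 6.17) against 0.304%. In each class the share at the genes was above that at shifted positions, which were pooled over the 12 shifts. No range over the shifts was taken by class, and neighbouring genes that share a summit count separately here. Over all distances above 5000 bases, 15 of 323 genes had a summit (4.64%, 2.62 to 7.54), against a mean of 0.395% and a highest value of 1.27% over the shifts. With the ends of lncRNA genes counted as well, it was 11 of 247 genes (4.45%, 2.24 to 7.83). Of the 30 summits, 14 were over 5000 bases from a protein-coding gene end, and 11 of these were also that far from every start site in the promoter table, lncRNA genes included. The median score was 6.78 for the 14 and 8.03 for the 10 within 1000 bases. Of 43 tRNA genes inside a protein-coding gene, 3 had an SP1 summit.

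Chained with gaps of up to 5000 bases, the 429 genes form 263 loci, of which 29 had an SP1 summit (11.0%, 7.51 to 15.5). A single gene made up 181 loci, and 16 of these had a summit (8.84%). It was 8 of 49 loci of 2 genes (16.3%), 4 of 15 loci of 3 genes (26.7%, 7.79 to 55.1) and 1 of 18 loci of 4 genes or more (5.56%, 0.141 to 27.3). The interval of the last class holds the share of all loci. In genes, it had 2 of 105. No locus had more than 2 genes hit, and 6 had 2.

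Of the 4 largest loci, 1 had an SP1 summit. The largest locus, 23 genes on chromosome 1 at 161440171 to 161471205, from TRG-TCC4-1 to TRL-CAG1-5, had none, and the nearest was 40603 bases away. The 9 genes on chromosome 16 at 3172048 to 3192060 had none, and the nearest was 37228 bases away. Of the 2 loci with 7 genes, that on chromosome 11 (59550629 to 59560407) had its nearest summit 790 bases from TRK-TTT3-4. The other, on chromosome 17 (8220869 to 8227064), held the summit between TRD-GTC2-11 and TRP-CGG1-3. Genes of such arrays can be near-identical copies, and reads that map to several copies may have been dropped or split. The sources used here do not say how the authors treated such reads, and its part in these counts was not tested.

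By chromosome, the 35 genes fell on 11 of the 22 chromosomes that carry tRNA genes. Chromosome 6, with 154 tRNA genes, the most of any, had 10 (6.49%, 3.16 to 11.6), and 7 of these were over 5000 bases from a protein-coding gene end. Chromosome 1 had 3 of 85 (3.53%, 0.734 to 9.97). Chromosome 17 had 5 of 33 (15.2%), chromosome 5 had 4 of 18 (22.2%) and chromosome 19 had 4 of 7 (57.1%, 18.4 to 90.1). On chromosome 19 none of the 7 genes was over 5000 bases from a protein-coding gene end, and their median distance was 473 bases, against 35943 on chromosome 6. Chromosomes 7 and 14, with 22 and 19 tRNA genes, had none, which allows up to 15.4% and 17.6%.

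By amino acid, valine had the most genes with a summit, 7 of 30 (23.3%, 9.93 to 42.3), and 5 of these 7 were among the 15 genes with the anticodon CAC. The share was higher for aspartate, with 4 of 13 (30.8%, 9.09 to 61.4), and for selenocysteine, with 1 of 2. Leucine had 4 of 32 (12.5%), serine 4 of 26 (15.4%), glutamate 3 of 15 and glycine 3 of 30. Alanine, the largest class, had 1 of 37 (2.70%, 0.0684 to 14.2). Of 22 classes, 13 had a gene with a summit and 9 had none. The 9 were cysteine, lysine, asparagine, tyrosine, methionine, phenylalanine, histidine, initiator methionine and tryptophan, 136 genes together. Taken singly, their exact intervals reach up to 11.9% for the 29 cysteine genes and 41.0% for the 7 tryptophan genes. The median distance to a protein-coding gene end among the classes without a summit ran from 11250 bases for tryptophan to 53782 for cysteine. Among the classes with one it ran from 6831 bases for proline to 70788 for alanine, with 30639 for aspartate, so the ranges overlap. Most single classes are too small for their intervals to separate.

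**Figure D5:**
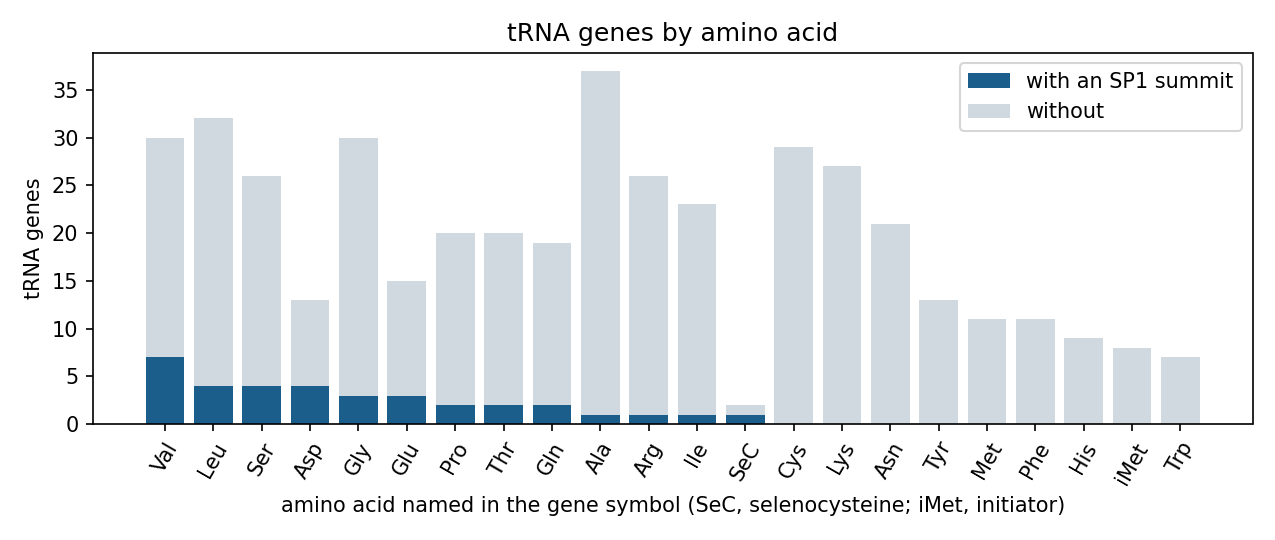
Number of tRNA genes (vertical) by the amino acid in the gene symbol (horizontal), with an SP1 summit within 500 bases of an end (dark) and without (light). Valine has 7 of 30 genes with a summit, alanine 1 of 37, and the 9 classes on the right have none.

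Gene symbols also number the different sequences that share an anticodon. Genes with number 1 had 18 hits of 116 (15.5%, 9.46 to 23.4), those with 2 or 3 had 11 of 158 (6.96%, 3.53 to 12.1) and those with 4 or above 6 of 147 (4.08%, 1.51 to 8.67). The median distance to a protein-coding gene end also differed, with 14094 bases, 15963 bases and 24821 bases in these 3 classes, and its part was not tested. This grouping was chosen after values were seen.

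H3K27ac summits were rare at tRNA genes, as they were at genes of the other kinds. Of the 429 genes 3 had one within 500 bases (0.699%, 0.144 to 2.03), against a background of 0.404% of protein-coding genes and 0.341% of all genes. The shifts gave a mean of 0.171% and a highest value of 0.983%, so the count was within the range of shifted positions. Pseudogenes had 0.252%. Since this list holds a summit at so few protein-coding genes, a missing summit does not show that a tRNA gene lacks the mark. The valine gene TRV-AAC1-1 on chromosome 3 (169772230 to 169772302) had an H3K27ac summit of 7.33 at 253 bases and an SP1 summit of 4.66 at 403 bases, 150 bases from each other and 841 and 691 bases from MYNN, a zinc-finger gene. TRM-CAT3-2, for methionine on chromosome 6, had 4.31 at 167 bases, and TRN-GTT2-2, for asparagine on chromosome 1, had 4.21 at 440 bases. Neither had an SP1 summit. Thus 1 of the 30 SP1 summits had an H3K27ac summit within 500 bases. No share over all SP1 summits stands beside this count, so it does not set these summits apart. The median distance from a tRNA gene to the nearest summit was 63.5 kb for SP1 and 161 kb for H3K27ac, in lists of unequal length.

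Other genes that Pol III transcribes also had SP1 summits. Of 20 such genes other than 5S rRNA, 6 had one within 500 bases, or 30% (11.9 to 54.3), against 5.09% of all genes, 5.37% of snRNA genes and 0.919% of small RNA genes other than tRNA genes. Some of the 20 are themselves counted in the last 2 shares. Copies of U6, an RNA of the spliceosome, made up 3 of them: RNU6-1 with 8.67 at 84 bases, RNU6-2 with 7.01 at 138 bases and RNU6-9 with 7.75 at 381 bases. RNU6-7 and RNU6-8 had none. RNU6ATAC, of the minor spliceosome, had 8.80 at 148 bases, RMRP, the RNA of RNase MRP, 8.17 at 115 bases, and the vault RNA gene VTRNA1-1 8.82 at 290 bases. RMRP, RNU6-2 and RNU6-9 were 273, 399 and 297 bases from a protein-coding gene end. The others were farther, from 4471 bases for RNU6ATAC to 5357 for RNU6-1. RN7SL2, an RNA of the signal recognition particle, lay just outside at 523 bases. The vault RNA genes VTRNA1-2, VTRNA1-3 and VTRNA2-1 had none, nor did RN7SL1, BCYRN1, RN7SK, RPPH1 and the 4 Y RNA genes. Neither did any of 17 5S rRNA genes (0 of 17, up to 19.5%). The 5S genes are near-identical copies in an array, where the limit on repeated sequence given above applies too. No H3K27ac summit lay at any of these genes, which are too few to tell this from the 0.341% of all genes.

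Protein-coding genes of Pol III transcription and tRNA maturation were listed by function. Of 55 found, 9 had an SP1 summit at an end (16.4%, 7.77 to 28.8), against the background of 11.5%, which lies inside the interval. Pol III subunits had 3 of 18: POLR3B, the second-largest subunit, with 8.82 at 118 bases, POLR3A, the largest, with 6.70 at 291 bases, and POLR2K, a subunit shared with the other polymerases, with 5.13 at 173 bases. TFIIIA and TFIIIC had 1 of 7, the TFIIIC subunit gene GTF3C5 with 6.06 at 80 bases, and TFIIIB 0 of 4. SNAPc, the factor of U6-type promoters, had 1 of 5, SNAPC2 with 15.5 at 79 bases. Regulation and maturation had 4 of 21. These were RPP40 with 35.3 at 157 bases and POP7 with 11.2 at 333 bases, both of RNase P, which trims the 5′ end of tRNAs, TSEN54, of the tRNA splicing endonuclease, with 12.5 at 307 bases, and MAF1, the repressor of Pol III, with 8.79 at 108 bases. None of the 55 had an H3K27ac summit at an end, too few genes to tell this from the 0.404% of protein-coding genes. The gene POLR3E stands beside TRL-AAG2-4, and the nearest SP1 summit was 910 bases from that tRNA gene.

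Of 16 genes that mark epithelial, lung, mesenchymal or unrelated cells, NAPSA, a protease gene of the lung group, had an SP1 summit at an end. None had one of H3K27ac, so the lists do not allow a check of the labelled cell type.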

How the data were processed

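Summits were used as the authors deposited them: a single base per peak with a score, which is a −log10 p-value or q-value of the peak caller, and the files do not say which. The lowest deposited score was 3.00 for SP1 and 3.02 for H3K27ac. Coordinates are hg38 per the submitters' processing notes, which name cutadapt 2.5 and deepTools 3.4.1 with no role. The sources used here do not name the aligner, the peak caller, its control or the treatment of reads that map to several places. The deposited ranked regions were not used.

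Genes came from RefSeq (GRCh38.p14), with rows outside the chromosome itself, 679 of 59098, left out. A hit is a summit within 500 bases of either end of a gene. Start sites and sequences came from the RefSeq promoter table, without chromosome 8. Shares have exact (Clopper-Pearson) 95% intervals. Calculations used Python 3.11.15, pandas 2.3.3 and scipy 1.17.1, and hits were tested on simulated data. Alternatives covered windows, scores, loci and distances. The genes, the lists and the alternatives were chosen with earlier results of these data known. Named are the 20 highest SP1 summits at tRNA genes, all H3K27ac ones, the loci with most genes or most hits, the 3 genes nearest outside 500 bases, and every hit gene of the Pol III lists; TRD-GTC2-8, TRS-GCT6-1, TRU-TCA2-1 and POLR3E were named after their values were seen, as were genes without a summit.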

Additional observations from a re-analysis of the deposited data

How the results depend on the processing

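No paired analysis was possible because each antibody has a single library. Of 42 alternative values, 33 stayed inside the main value's interval or spread and 9 moved out of it. With a window of 1000 bases the share of tRNA genes with an SP1 summit was 11.7% (protein-coding genes 13.9%), that of other small RNA genes 1.75% and that of shifted positions 0.922%; with 2000 bases, tRNA genes stood at 12.6%. A wider window can only raise these. When summits had to score above the list's upper quartile, tRNA genes stood at 1.86% (8 genes, against 5.34% of protein-coding genes), loci at 2.66% and genes over 5000 bases from a protein-coding gene end at 0.619% (2 genes, against 9 genes with summits above the median). With summits above the median score, other small RNA genes were at 0.622%, and tRNA genes at 6.06%. Loci joined over gaps of 50000 bases stood at 16.9% of 130. Without chromosome 6 or chromosome 1, tRNA genes were at 9.09% and 9.30%. Settings that took all 443 genes as listed (7.90%), start sites of the promoter table (4.26% of 282 genes) and shifts at other windows were added after seeing the data. Unknown depth limits what a missing summit says.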
